A study of Mus musculus with 4 samples.

Results

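Tbx1, Tbx2, Tbx3, Tbx5, Tbx18 and Tbx20, the T-box transcription factors of the pharynx and heart, were followed as 6 of the 32285 genes listed in the count matrices. They were taken by symbol, and each symbol matched 1 row. The cells came from E9.5 mouse embryos (an outbred Swiss Webster strain by the labels, a mixed C57BL/6 and Swiss Webster background by the study's methods), dissected from the first pharyngeal arch back through the heart and sorted for GFP, which marks cells in which the Tbx1Cre knock-in had been active and their descendants. The cHet genotype was Tbx1Cre/+; Kmt2d F/+; GFP F/+ and the cKO genotype was Tbx1Cre/+; Kmt2d F/F; GFP F/+, so all cells of both genotypes carried 1 Tbx1 allele replaced by Cre. Kmt2d encodes a histone H3 lysine 4 methyltransferase. Each genotype had 2 libraries, from pools of 4 embryos in Rep1 and of 3 embryos in Rep2, so single embryos were not separated. The UMI counts cannot tell the 2 Tbx1 alleles apart.

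T-box factors share a DNA-binding domain that recognises the same short element, and members compete or cooperate at shared targets with partners such as Nkx2-5 and Gata4. Tbx1 acts in pharyngeal mesoderm, endoderm and ectoderm and is the main dosage-sensitive gene of DiGeorge syndrome. Tbx5 and Tbx20 activate chamber and inflow genes in the heart, Tbx2 and Tbx3 repress the chamber programme in the atrioventricular canal, outflow tract and conduction tissue, and Tbx18 is a repressor of the venous pole and proepicardium that is also used in somites and head mesenchyme.

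The 6 genes lie on 4 chromosomes in GENCODE M21 (mm10). Tbx1 is at chr16:18580979-18590671 on the minus strand, Tbx2 at chr11:85832551-85841948 on the plus strand, Tbx3 at chr5:119670669-119684724 on the plus strand, Tbx5 at chr5:119832668-119885219 on the plus strand, Tbx18 at chr9:87702800-87731260 on the minus strand and Tbx20 at chr9:24718138-24774303 on the minus strand. Tbx3 and Tbx5 are neighbours with 147.9 kb and no protein-coding gene between them. Tbx3 overlaps Tbx3os1 and Tbx18 overlaps D030062O11Rik, each on the opposite strand.

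The libraries held between 179454146 and 234726019 UMIs. After filtering, 33448 cells remained (5869 in cHet Rep1, 6291 in cKO Rep1, 9350 in cHet Rep2 and 11938 in cKO Rep2), with a median of 17240.5 to 22972 UMIs per cell. cHet Rep1 stood apart, since only 60.0% of its UMIs were in kept cells, against 86.1% to 91.6% in the other libraries. Its deposited matrix held 37093 barcodes, against 9307 to 16775 in the others. The 2 libraries of Rep1 shared 87 cell barcodes and those of Rep2 shared 71. Kmt2d itself was at 17.4 CPM (the UMIs of a gene scaled to the same total of UMIs in each library or cell group) in cHet Rep1, 15.2 in cKO Rep1, 23.9 in cHet Rep2 and 21.0 in cKO Rep2, and counts at the 3' end do not show removal of the floxed exons. Cells fell into 26 groups, of which 15 are called like a cell type by marker genes and 11 by 2 or 3 of their leading genes. No T-box gene was used to form or name them. Because fewer cells of a type and less RNA per cell cannot be told apart in summed counts, levels are given per cell group.

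**Figure D1:**
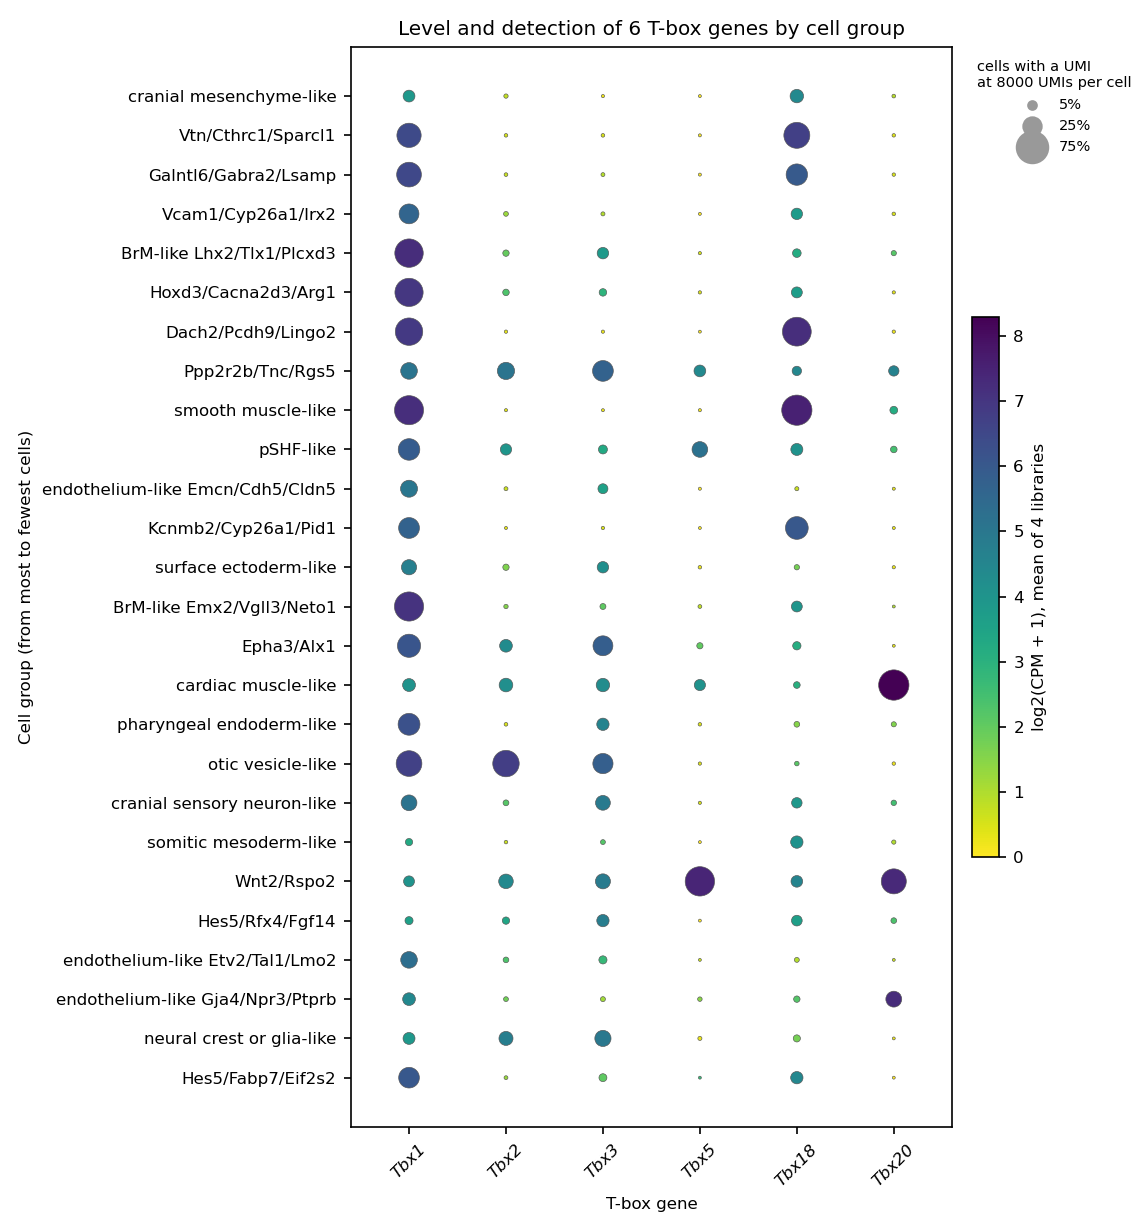
Level (colour, log2(CPM + 1), mean of 4 libraries) and share of cells with a UMI at 8000 UMIs per cell (dot size, mean of 4 libraries) for 6 T-box genes (columns) in 26 cell groups (rows, ordered by size; BrM is branchiomeric muscle progenitor, pSHF is posterior second heart field). Tbx1 is spread over most rows, whereas Tbx5 is darkest in Wnt2/Rspo2 cells and Tbx20 in cardiac muscle-like cells.

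Tbx1 was the broadest of the 6 genes, with a mean of at least 10 CPM in 25 of 26 groups. All cells had been sorted for past activity of the Tbx1Cre knock-in, so this breadth cannot be told apart from the sort. Tbx1 had its highest means in branchiomeric muscle progenitor-like cells led by Lhx2 and smooth muscle-like cells, which did not differ beyond their spread. The former were at 172 CPM in cHet and 166 in cKO of Rep1 and at 136 in cHet and 121 in cKO of Rep2, and wherever 4 values follow each other below they are in this order. These progenitors give rise to the muscles of the jaw and face. In smooth muscle-like cells it was at 164, 179, 125 and 124 CPM. The ranges of neighbouring groups overlapped through all of the 8 highest, so the order of their means does not rank them. The 8 include branchiomeric muscle progenitor-like cells led by Emx2 (135 ± 25.6 CPM, SD, n = 4), Hoxd3/Cacna2d3/Arg1 cells (127 ± 6.42), Dach2/Pcdh9/Lingo2 cells (119.6 ± 17.3; these and the following values are means ± SD of 4 libraries) and otic vesicle-like cells (103 ± 18.2). Pharyngeal endoderm-like cells, which form the pouches, held 92.1, 75.6, 58.9 and 69.2 CPM. Tbx1 was lowest in somitic mesoderm-like cells (8.82 CPM on average, between 2.26 and 22.9) and low in cranial mesenchyme-like cells (9.47 to 18.3 CPM) and cardiac muscle-like cells (9.37 to 29.7 CPM). In each of the 22 groups with at least 20 cells per library and at least 10 CPM the mean was lower in Rep2 than in Rep1, and in 17 of them both Rep2 libraries were below both Rep1 libraries. The replicates differ in the library kit, in the Cell Ranger version named in the matrix headers and in the embryos, and these cannot be told apart.

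Tbx5, the forelimb and inflow-tract factor, was restricted to few groups. Its level was highest in Wnt2/Rspo2 cells, at 111, 123, 211 and 250.0 CPM. All 4 libraries were above every library of the next group. Wnt2/Rspo2 cells numbered 402, carried 7 of 8 cardiac muscle markers and 5 of 7 posterior second heart field markers above other cells, had none of the former among their top 10 genes, and received no cell type name. They held 42.7% of all Tbx5 UMIs although they were 0.954% to 1.42% of the cells of a library. Posterior second heart field-like cells followed with 27.1, 34.9, 42.3 and 39.4 CPM. Ppp2r2b/Tnc/Rgs5 cells held 13.3 to 25.4 CPM, below all of these libraries, and cardiac muscle-like cells held 9.89 to 31.5 CPM, a range that overlapped with both groups. No Tbx5 UMI was found in 451 somitic mesoderm-like cells, which allows a share of cells with a UMI of up to 0.665%, nor in 370 Hes5/Rfx4/Fgf14 cells, which allows up to 0.811%. These limits cover counting error in detection only, not the share of cells that express the gene. The height of the Tbx5 peak rested on how cells were grouped. With T-box genes kept among the clustering genes, called doublets kept or a minimum of 1000 genes per barcode, another group had the highest Tbx5. That group was posterior second heart field-like and held Tbx5 at 83.1, 81.8 and 80.4 CPM on average. The Wnt2/Rspo2 cells are not traced between settings here. With the minimum of 1000 genes, cHet Rep1 kept 17982 cells at a median of 3973.5 UMIs. The other libraries then had medians of 16543 to 21068.5 UMIs.

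Tbx20, which is needed for chamber growth and for valve endocardium, had its highest mean in cardiac muscle-like cells, at 263 CPM in cHet Rep1, 199 in cKO Rep1, 392 in cHet Rep2 and 399 in cKO Rep2. These 657 cells held 55.6% of all Tbx20 UMIs. Wnt2/Rspo2 cells had 128, 133, 187 and 193 CPM, so every cardiac muscle-like library was above every library of this group. In endothelium-like cells led by Gja4 and Npr3, Tbx20 was at 55.9 CPM in cHet Rep1, 259 in cHet Rep2 and 299 in cKO Rep2. The remaining library, cKO Rep1, had only 2 cells of that group and no Tbx20 UMI. The other 3 overlapped with the cardiac muscle-like libraries, so these groups are not ranked. The other endothelium-like groups were under 10 CPM. Ppp2r2b/Tnc/Rgs5 cells held 14.97, 10.1, 28.3 and 41.7 CPM. Tbx20 was higher in Rep2 than in Rep1 in each of the 3 tested groups with at least 10 CPM.

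Tbx2 and Tbx3 are closely related repressors. Tbx2 was led by otic vesicle-like cells, at 62.8, 87.7, 139 and 147 CPM, above every library of the next group. That group, Ppp2r2b/Tnc/Rgs5, had 26.2, 32.9, 38.1 and 36.9 CPM, and cardiac muscle-like cells had 11.9 to 23.0 CPM. Neural crest or glia-like cells, only 12 to 69 per library, overlapped with both at 14.7, 22.6, 19.2 and 49.1 CPM. Tbx3 showed 3 groups of similar level. Epha3/Alx1 cells held 56.4, 50.8, 56.2 and 63.1 CPM. Otic vesicle-like cells held 27.9, 58.3, 52.0 and 82.6 CPM. Ppp2r2b/Tnc/Rgs5 cells held 48.7, 45.9, 55.3 and 57.1 CPM. The ranges of the 3 groups overlapped, and the next group, neural crest or glia-like cells, did not reach the lowest library of Ppp2r2b/Tnc/Rgs5 cells. Cardiac muscle-like cells had 14.5 to 24.6 CPM of Tbx3. Ppp2r2b/Tnc/Rgs5 cells are marked by Hand2 and carried 3 of 6 epicardial markers above other cells (Wt1, Upk3b and Podxl).

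Tbx18 had its highest means in smooth muscle-like cells, at 167, 185, 179 and 212 CPM, and in Dach2/Pcdh9/Lingo2 cells, at 140, 129, 156 and 167 CPM. The highest library of the second and the lowest of the first overlapped by less than 1 CPM. Vtn/Cthrc1/Sparcl1 cells followed without overlap at 92.9 to 117 CPM. Kcnmb2/Cyp26a1/Pid1 cells (51.4 to 76.6 CPM) and Galntl6/Gabra2/Lsamp cells (52.0 to 72.3 CPM) came next. The 3 groups with the most Tbx18 also held 86.0 to 148 CPM of Tbx1 on average, and each was under 0.5 CPM for Tbx2, Tbx3 and Tbx5. In Dach2/Pcdh9/Lingo2 cells Tbx2 was at 0.25 CPM and Tbx3 at 0.20 CPM on average. Endothelium-like cells led by Emcn held 0.635 CPM of Tbx18.

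**Figure D2:**
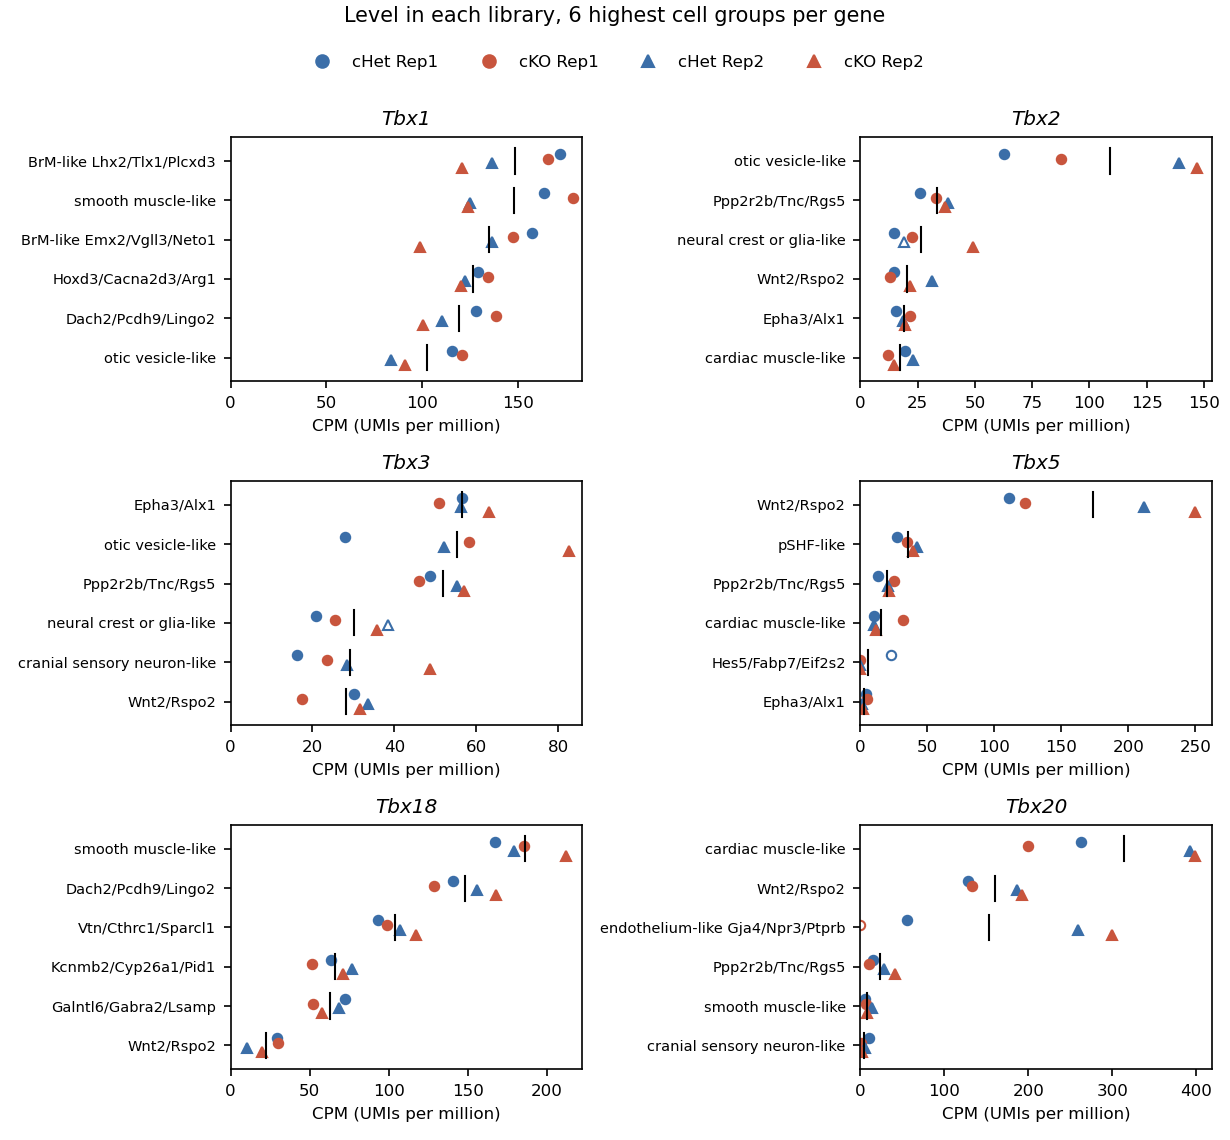
Level (CPM, linear axis from 0) of each T-box gene in its 6 highest cell groups; each point is a library (blue cHet, red cKO; circle Rep1, triangle Rep2; open symbol under 20 cells) and the black line is the mean of 4 libraries. Tbx5 in Wnt2/Rspo2 cells is above the next group in all 4 libraries, whereas the highest groups of Tbx1 and Tbx3 overlap, as do Tbx20 in cardiac muscle-like cells and in endothelium-like cells led by Gja4. The fifth group of Tbx5 rests on 1 UMI in a library with 3 cells.

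The genes with the most similar pattern over the 26 groups were named by the Pearson correlation of log2(CPM + 5), with 9599 genes compared. The points share libraries and depth, and the values are descriptive. For Tbx2 the closest gene was Tbx3 (r = 0.78), and the reverse also held. For Tbx20 it was the unnamed transcript Gm35533 and then Gata4 (both r = 0.96), followed by E130006D01Rik (0.89), Gata5 (0.88) and Ifitm10 (0.87). For Tbx5 it was Wnt2, a ligand of the inflow tract (r = 0.91), followed by 1010001N08Rik (0.90), Gm45889 (0.89), the peptide gene Apela (0.87) and the pacemaker channel gene Hcn4 (0.86). For Tbx18 it was Gm12829 (0.90), Gm5127 (0.89), 2610316D01Rik (0.88), Fam110b (0.87) and Foxd1 (0.87). Tbx1 had weaker neighbours, Six2 (0.74), Morc3 (0.70), Gnb1l (0.66), Ubl3 (0.63) and Mxd4 (0.61). Gnb1l is the gene next to Tbx1, 14.3 kb away on the opposite strand. Tbx1 and Tbx18 correlated at 0.38, Tbx5 and Tbx20 at 0.65, and Tbx3 and Tbx18 at -0.55.

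Detection per cell followed the levels. In branchiomeric muscle progenitor-like cells led by Lhx2, a Tbx1 UMI was found in 78.6% to 88.7% of cells by library, and in 57.4% to 67.6% after each cell was thinned to 8000 UMIs. Tbx5 was found in 76.7% to 95.3% of Wnt2/Rspo2 cells (50.8% to 78.1% thinned) and Tbx20 in 72.1% to 91.2% of cardiac muscle-like cells (59.1% to 79.4% thinned). Tbx18 was found in 84.0% to 91.1% of smooth muscle-like cells (65.8% to 72.2% thinned) and Tbx2 in 72.7% to 89.4% of otic vesicle-like cells (42.9% to 63.7% thinned). Tbx3 reached 51.4% to 57.1% of Epha3/Alx1 cells (27.2% to 32.1% thinned). As a background, Tbx3 was found in 0.204% to 0.666% of cranial mesenchyme-like cells (at most 0.231% thinned) and Tbx2 in 0.362% to 0.482% of Dach2/Pcdh9/Lingo2 cells (at most 0.325% thinned). Tbx20 gave 6.50 to 10.6 UMIs per positive cardiac muscle-like cell by library, and Tbx1 gave 2.82 to 5.31 in its highest group.

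How many of the genes a cell held differed between groups. At 8000 UMIs per cell, 45.5% of smooth muscle-like cells had UMIs of 2 of the 6 genes, 42.4% of 1 and 11.0% of none. Wnt2/Rspo2 cells had the most, with 39.5% holding 2 genes and 19.6% holding 3 or more. At the other end, 84.3% of somitic mesoderm-like, 81.9% of Hes5/Rfx4/Fgf14 and 77.4% of cranial mesenchyme-like cells had none. UMIs of 2 genes were found in 1.91% of cranial mesenchyme-like, 3.68% of Vcam1/Cyp26a1/Irx2 and 8.61% of Hoxd3/Cacna2d3/Arg1 cells.

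For each pair, the number of cells with both genes was set against the number given by the product of the 2 shares within each library and cell group. A ratio of 1 means that the 2 genes fell on cells without regard to each other. Tbx2 and Tbx3 were found together more often than that in Ppp2r2b/Tnc/Rgs5 cells, in 181 of 1623 thinned cells against 118 from the shares (ratio 1.53, 1.39 to 1.64 over the 4 libraries). Tbx5 there went with Tbx2 (1.48, 1.203 to 1.66) and with Tbx3 (1.35, 1.03 to 1.51). In Epha3/Alx1 cells the ratio of Tbx2 and Tbx3 was 1.55 (1.28 to 1.74). In otic vesicle-like cells, where both were common, it was 0.94 (0.86 to 1.23). Tbx1 and Tbx5 were found together less often in Ppp2r2b/Tnc/Rgs5 cells, in 13 cells against 32.2 from the shares (ratio 0.40, 0.36 to 0.49), and in posterior second heart field-like cells, in 50 against 87.6 (ratio 0.57, 0.45 to 0.79). Tbx1 and Tbx3 gave 0.42 in posterior second heart field-like cells (0.21 to 0.80, from 12 cells). Tbx18 rarely shared Ppp2r2b/Tnc/Rgs5 cells with Tbx2 (4 cells against 22.3, ratio 0.18, 0 to 0.35) or with Tbx3 (9 cells against 32.4, ratio 0.28, 0 to 0.56). Tbx18 and Tbx20 gave 0.62 in smooth muscle-like cells (0.55 to 0.76). Tbx1 and Tbx18 gave 1.023 in smooth muscle-like cells (0.97 to 1.05), and Tbx5 and Tbx20 gave 1.10 in Wnt2/Rspo2 cells (1.04 to 1.19). With all UMIs, Tbx2 and Tbx3 gave 1.27 and Tbx1 and Tbx5 gave 0.46 in Ppp2r2b/Tnc/Rgs5 cells.

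**Figure D3:**
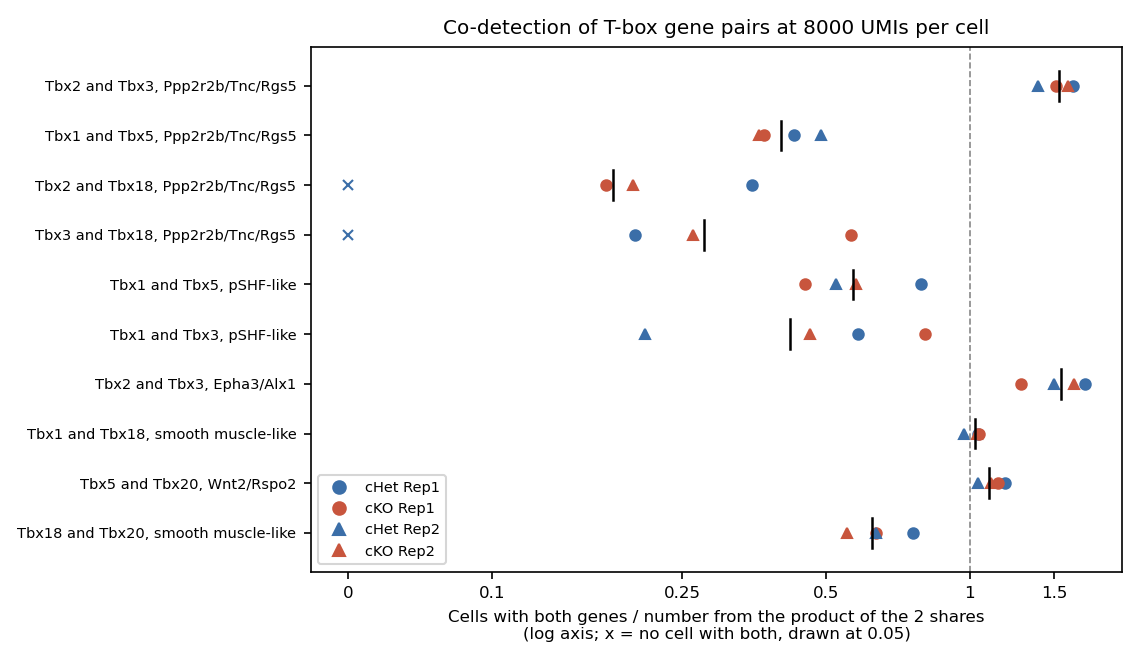
Ratio of cells with both genes to the number from the product of the 2 shares (log axis), for 10 pairs of T-box gene and cell group at 8000 UMIs per cell; each point is a library (blue cHet, red cKO; circle Rep1, triangle Rep2), a cross is a library without such a cell and the black line is all libraries together. Tbx2 and Tbx3 are right of 1 in all libraries of 2 groups, and Tbx1 and Tbx5 are left of 1 in all libraries of 2 groups.

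Ppp2r2b/Tnc/Rgs5 cells, in which all 6 genes were found, were split by each gene at 8000 UMIs per cell to see which other regulators shared a cell with it. Several genes were found at other shares in the 99 cells with a Tbx18 UMI. Of them 48.5% held Wt1 against 8.73% of the cells without Tbx18, 42.4% held Gata4 against 4.13%, 33.3% held the retinoic acid enzyme gene Aldh1a2 against 2.10%, 41.4% held Upk3b against 15.2% and 26.3% held Sema3d against 1.97%. These are genes of the proepicardium and its surface, and all but Gata4 are in the venous pole and epicardial list followed below. Isl1, a heart-field factor in that same list, went the other way, in 18.2% of the cells with Tbx18 against 58.4%. Shares of the remaining genes of the list are not printed here. Msx2, a target of BMP signalling, was in 3.03% against 32.6%. The 159 cells with a Tbx5 UMI held more Msx2 (64.2% against 27.2%) and Hand1 (41.5% against 21.3%), and less Isl1 (12.6% against 60.7%) and Mef2c (10.1% against 55.1%). The 134 cells with a Tbx20 UMI held more Myocd, a coactivator of muscle genes (47.8% against 16.1%), Nkx2-5 (32.1% against 5.84%), Isl1 (74.6% against 54.3%) and Mef2c (75.4% against 48.5%). The 359 cells with a Tbx2 UMI held more Msx2 (47.4% against 26.1%) and less Wt1 (6.69% against 12.4%), and the 532 cells with a Tbx3 UMI did likewise (42.9% against 24.9% and 5.45% against 13.9%). Each of these differences had the same direction in all 4 libraries.

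**Figure D4:**
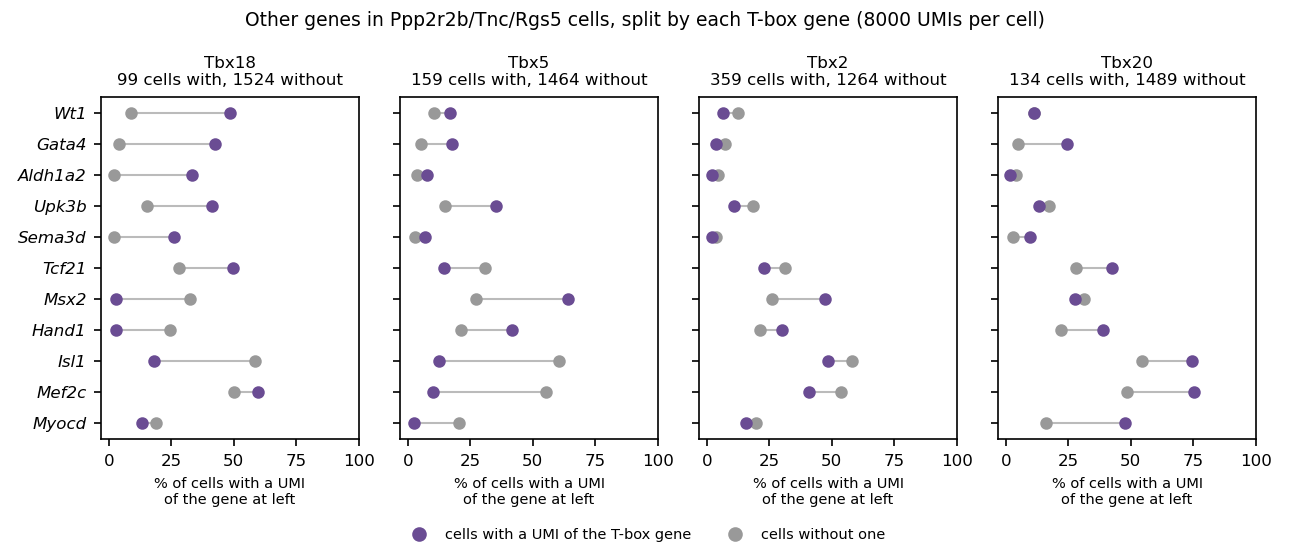
Share of Ppp2r2b/Tnc/Rgs5 cells with a UMI of 11 other genes (rows) among cells with (purple) and without (grey) a UMI of Tbx18, Tbx5, Tbx2 or Tbx20, at 8000 UMIs per cell over 4 libraries. Wt1, Gata4 and Aldh1a2 are far apart in the Tbx18 panel, Msx2 and Isl1 in the Tbx5 panel, and Myocd in the Tbx20 panel.

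In posterior second heart field-like cells the 264 cells with a Tbx5 UMI held more Aldh1a2 (79.9% against 54.5%) and less Mef2c (22.7% against 43.6%) and Eya1 (36.0% against 54.4%). The 480 cells with a Tbx1 UMI had the opposite order for Mef2c (44.6% against 37.4%), Eya1 (61.7% against 45.8%) and Aldh1a2 (54.4% against 61.5%). Eya1 is a transcriptional coactivator of the arches. In Wnt2/Rspo2 cells the 275 cells with Tbx5 held more Hcn4 (30.2% against 10.3%), Cacna2d2 (36.4% against 15.4%) and Myocd (55.6% against 34.2%). In cardiac muscle-like cells the 480 cells with Tbx20 held more Gata4 (50.2% against 24.3%), Nkx2-5 (69.4% against 46.7%) and Hand1 (38.8% against 17.2%). There, none of the 92 cells with Tbx2 held Nppa, the chamber natriuretic peptide gene, which allows a share of up to 3.26%, against 10.2% of the others, and 1.16% of the 86 cells with Tbx3 did, against 9.95%. All these directions held in every library with at least 10 positive cells.

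The genotypes were then compared on counts summed per cell group and library, with the replicate as a block, in the 23 groups with at least 20 cells in each library (edgeR quasi-likelihood test, Benjamini-Hochberg adjustment over all genes of a group, adjusted p under 0.05). By the study's somite counts, the cKO pool of Rep2 was at or above the range of its cHet pool. In Rep1 the cKO range lay within the cHet range. The part of stage in the differences between genotypes was not tested. Values from here on are CPM normalised by TMM. With 2 libraries per genotype, a permutation test of a single value that ignores the replicates cannot go below p = 0.33. Permuting only within replicates would allow fewer arrangements and a higher floor. Of 88 tests of the 6 genes, 4 were called, 1 higher and 3 lower in cKO, against 1306 of 284865 tests (0.458%) for all genes together. In the edgeR test with the block 23 of the 88 (26.1%) were at an unadjusted p under 0.05. For all genes this held for 18452 of 284865 tests (6.48%). The 6 genes were chosen with earlier results of these data known, so these shares are not an independent comparison. Without the replicate block edgeR called 0 of the 88 (6 at an unadjusted p under 0.05). DESeq2 with the block called 0 (7 at an unadjusted p under 0.05). The share of all genes under these other settings is not given here. Fits that leave out 1 library were made without the block and keep 1 library of a genotype. They mix the replicate difference with the genotype, so only their log2 fold changes are given.

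**Figure D5:**
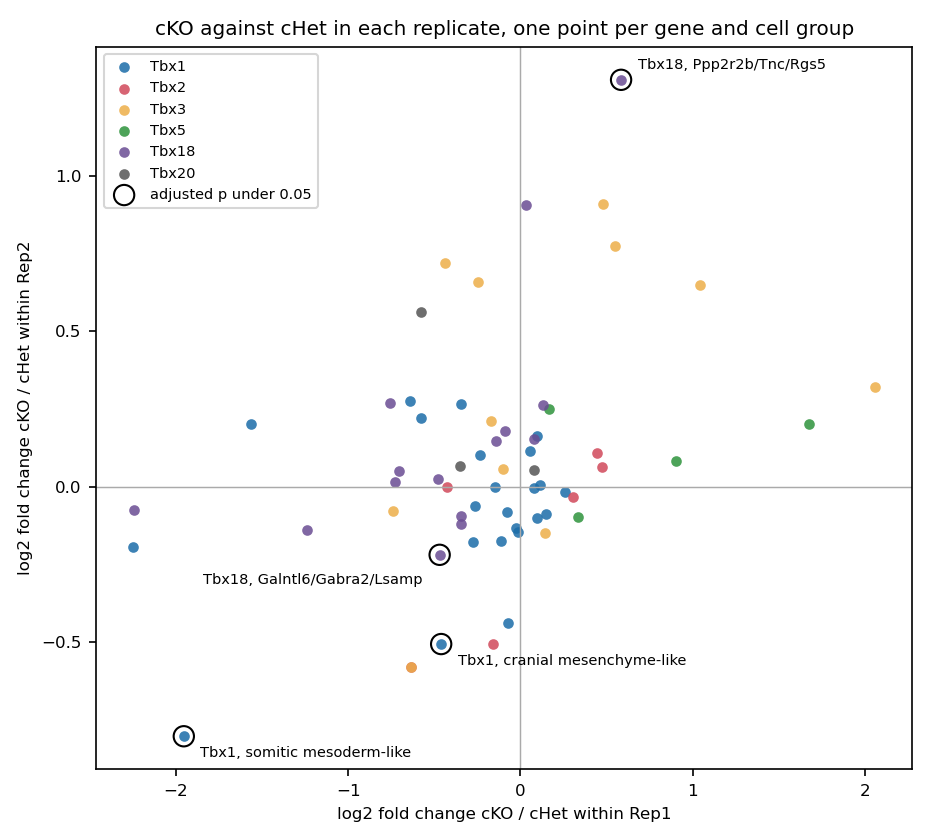
log2 fold change of cKO over cHet within Rep1 (x axis) and within Rep2 (y axis) for the 6 T-box genes, 1 point per gene and tested cell group with a mean of at least 10 CPM or a call; rings mark an adjusted p under 0.05 (edgeR). The 4 ringed points have the same sign in both replicates, and many others change sign between them.

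Tbx18 rose in Ppp2r2b/Tnc/Rgs5 cells, where 49 of 13267 genes (0.369%) were called. It was at 15.7 CPM in cHet Rep1 and 23.6 in cKO Rep1, and at 12.3 in cHet Rep2 and 30.9 in cKO Rep2, so both cKO libraries were above both cHet libraries. The log2 fold change was 1.00 ± 0.15 (SE, adjusted p = 1.08e-05). The share of cells with a Tbx18 UMI at 8000 UMIs was 4.07% in cHet Rep1 and 3.67% in cHet Rep2, against 8.36% in cKO Rep1 and 8.24% in cKO Rep2. UMIs per positive cell were 3.97 and 5.16 in cHet and 5.00 and 5.96 in cKO, from 29, 25, 30 and 56 positive cells with all UMIs, both cHet libraries first. In the same cells the 10 venous pole and epicardial genes had a median of 0.30 on the log2 scale against 0.00 for all genes. Of the 10, 4 were called by edgeR with the block, all higher. They were Wt1 (0.67 ± 0.14), Sema3d (0.98 ± 0.21), Aldh1a2 (0.90 ± 0.21) and Shox2 (2.26 ± 0.53, at or below 3.06 CPM in each library). Gata4 also rose, from 11.7 to 22.8 CPM in Rep1 and from 17.2 to 32.1 CPM in Rep2 (0.92 ± 0.14), and Myocd fell, from 36.1 to 16.9 CPM in Rep1 and from 95.6 to 67.3 CPM in Rep2. Upk3b, from the same list as Wt1, was not called (0.29 ± 0.11, adjusted p = 0.548, edgeR). Over all groups, edgeR without the block called 0 of 788 tests of list genes, and DESeq2 with the block called 1. Ppp2r2b/Tnc/Rgs5 cells were 6.78% and 4.56% of the cells in cHet and cKO of Rep1 and 4.41% and 4.55% in Rep2, and whether the make-up of the group differed was not tested.

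Tbx18 fell in Galntl6/Gabra2/Lsamp cells, where 2.06% of genes were called. It was at 82.1 CPM in cHet Rep1 and 59.3 in cKO Rep1, and at 59.6 in cHet Rep2 and 51.2 in cKO Rep2. The cKO libraries were below both cHet libraries, by less than 1 CPM at the nearest. The log2 fold change was -0.34 ± 0.07 (SE, adjusted p = 0.00461, edgeR), and with RLE size factors in edgeR the adjusted p was 0.0564. Without cHet Rep1, in a fit without the block, the log2 fold change was -0.11. The share of cells with a UMI at 8000 UMIs was 38.9% and 39.4% in cHet and 29.0% and 30.6% in cKO. In smooth muscle-like cells (1.13% of genes called), where Tbx18 was highest, the change was 0.20 ± 0.07 (adjusted p = 0.192, edgeR) and in Dach2/Pcdh9/Lingo2 cells 0.01 ± 0.08. Over its 19 tested groups the log2 fold change of Tbx18 was positive in 8 and negative in 11, with the same sign in both replicates in 10.

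Tbx1 fell in cranial mesenchyme-like cells and in somitic mesoderm-like cells, both among its lowest groups. In both groups cHet Rep1 was the highest library. Ambient RNA was not removed from the counts, and its part in these values was not tested. In cranial mesenchyme-like cells (0.717% of genes called) it was at 20.4 CPM in cHet Rep1 and 14.8 in cKO Rep1, and at 12.1 in cHet Rep2 and 8.50 in cKO Rep2. Each cKO library was below its own cHet library, but the genotypes overlapped across replicates. The log2 fold change was -0.49 ± 0.11 (SE, adjusted p = 0.0469, edgeR), and with cells thinned to 8000 UMIs the adjusted p was 0.174. In fits without the block the log2 fold change was -0.059 without cHet Rep1 and -0.14 without cKO Rep2. In somitic mesoderm-like cells (0.292% called) it was at 26.6, 6.33, 4.00 and 1.98 CPM (-1.69 ± 0.43, adjusted p = 0.0406, edgeR). This value rests on 66 UMIs in 451 cells, 28 of them in 46 cells of cHet Rep1, and within Rep2 alone the difference was -0.80. Without cHet Rep1, in a fit without the block that mixes in the replicate difference, the log2 fold change was -0.013. With RLE size factors in edgeR its adjusted p was 0.160. In the groups where Tbx1 was high it did not pass the test. It was -0.08 ± 0.07 in branchiomeric muscle progenitor-like cells led by Lhx2, 0.06 ± 0.07 in smooth muscle-like cells and 0.01 ± 0.15 in pharyngeal endoderm-like cells. In the last group the replicates had opposite signs, -0.34 in Rep1 and 0.26 in Rep2. In branchiomeric muscle progenitor-like cells led by Emx2 the change of Tbx1 was -0.27 ± 0.10 (adjusted p = 0.459, edgeR), and in endothelium-like cells led by Emcn (0.0737% of genes called) -0.08 ± 0.11. Over 23 groups the median log2 fold change of Tbx1 was -0.08, with 16 negative and 7 positive values, and both replicates had the same sign in 14.

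Tbx3 had a positive log2 fold change in 12 of 17 tested groups, with a median of 0.31, but the replicates had the same sign in only 8 of the 17, and it passed the test in none by edgeR (4 at an unadjusted p under 0.05; it was not called by DESeq2 either). In otic vesicle-like cells it was at 32.2 and 67.1 CPM in cHet and cKO of Rep1 and at 45.9 and 72.3 CPM in Rep2, with both cKO libraries above both cHet libraries (0.81 ± 0.15, adjusted p = 0.141, edgeR, with 0.0721% of genes called). In cranial sensory neuron-like cells it was at 17.8 and 26.4 CPM in Rep1, against 25.8 and 44.6 CPM in Rep2 (0.69 ± 0.18, adjusted p = 0.182, edgeR, with 0.408% of genes called). In surface ectoderm-like cells it was at 12.9 and 18.1 CPM in Rep1, against 13.0 and 24.7 CPM in Rep2. The log2 fold change there was 0.76 ± 0.19 (adjusted p = 0.9997, edgeR, with 0 of 12700 genes called). Tbx3 went the other way in branchiomeric muscle progenitor-like cells led by Lhx2, at 14.7 and 9.44 CPM in Rep1, against 17.0 and 11.3 CPM in Rep2 (-0.61 ± 0.15, adjusted p = 0.179, edgeR). Tbx2 was not called in any of 15 groups by edgeR or DESeq2 (2 at an unadjusted p under 0.05 with edgeR). In otic vesicle-like cells the change of Tbx2 was 0.23 ± 0.13, and in cardiac muscle-like cells -0.62 ± 0.26 (adjusted p = 0.679, edgeR).

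Tbx5 had a positive log2 fold change in all 5 of its tested groups, with the same sign in both replicates in 4, and was called in none by edgeR or DESeq2 (2 at an unadjusted p under 0.05 with edgeR). In Wnt2/Rspo2 cells it was at 124 and 139 CPM in cHet and cKO of Rep1 and at 191 and 227 CPM in Rep2 (0.22 ± 0.11, adjusted p = 0.866, edgeR). In cardiac muscle-like cells it was at 10.6 and 35.1 CPM in Rep1, against 9.18 and 10.6 CPM in Rep2, so the difference lay in Rep1, where cKO had 44 such cells. In posterior second heart field-like cells (0.0233% of genes called) Tbx5 was at 31.1 and 39.3 CPM in Rep1, against 37.3 and 34.9 CPM in Rep2 (0.06 ± 0.13). Tbx20 was called in none of 9 groups by edgeR or DESeq2 (4 at an unadjusted p under 0.05 with edgeR). Its change was -0.12 ± 0.12 in cardiac muscle-like cells and 0.06 ± 0.12 in Wnt2/Rspo2 cells. Summed over all kept cells, Tbx20 was at 11.7 and 4.71 CPM in cHet and cKO of Rep1 and at 14.98 and 15.4 CPM in Rep2. Cardiac muscle-like cells were 2.62% and 0.699% of the cells in Rep1 and 2.32% and 2.03% in Rep2.

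Genes that act with or under the 6 factors were followed in 6 lists. Some genes, such as Aldh1a2, Isl1, Gata4 and Mef2c, stand in more than 1 list. A call of such a gene counts in each of its lists. In all groups together 27 of 788 tests of list genes were called by edgeR with the block, 21 higher and 6 lower, beside 0.458% of the tests of all genes. The lists were chosen with earlier results of these data known, and a gene counts once per group, so this is not an independent comparison. Without the block edgeR called 0 of the 788 (22 at an unadjusted p under 0.05), and DESeq2 with the block called 1, so the counts of calls that follow hold for edgeR with the block. The 10 venous pole and epicardial genes gave 12 calls, all higher, in 123 tests. Shox2, which opposes Nkx2-5 in the sinus node and also stands in the atrioventricular canal and pacemaker list, gave 5 of these. In cardiac muscle-like cells its rise, from 8.06 to 38.9 CPM, lay in Rep1, where cKO had 44 such cells, and it was at 0.17 and 0.20 CPM in Rep2. Sema3d in the same cells was at 7.69 and 86.3 CPM in Rep1, against 3.57 and 3.15 CPM in Rep2. In Wnt2/Rspo2 cells, where 0.629% of genes were called, Shox2 was at 13.6 and 55.0 CPM in cHet and cKO of Rep1 and at 25.3 and 51.4 CPM in Rep2 (1.35 ± 0.21). In Hoxd3/Cacna2d3/Arg1 cells (0.774% of genes called) it was at 38.8 and 47.1 CPM in Rep1, against 45.3 and 67.1 CPM in Rep2. The 8 atrioventricular canal and pacemaker genes, Shox2 among them, gave 6 calls, all higher, in 129 tests. The 28 Tbx1-linked genes gave 7 higher and 5 lower calls in 408 tests. Among them Pax9 fell by 0.54 and Cyp26c1 by 0.53 on the log2 scale in cranial mesenchyme-like cells, and the muscle progenitor gene Msc rose by 0.55 in branchiomeric muscle progenitor-like cells led by Lhx2. Of 9 chamber myocardium genes tested in cardiac muscle-like cells (0.462% of genes called) the natriuretic peptide gene Nppb (1.03 ± 0.17) and Smpx (0.51 ± 0.12) were called, both higher. Nppb was at 52.4 and 99.5 CPM in Rep1, against 21.2 and 46.1 CPM in Rep2. The cardiac partner factors gave 2 higher calls, Gata4 above and Mef2c in Galntl6/Gabra2/Lsamp cells, and 1 lower, Myocd above. Among the other T-box genes Tbx15 alone was called, higher in smooth muscle-like cells (0.54 ± 0.08).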

How the data were processed

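Single-cell 3' RNA-seq was made with the Next GEM kit for Rep1 and the GEM-X kit for Rep2. The authors deposited UMI counts per gene and barcode, aligned to mm10. The submitters' processing notes name Cell Ranger 8.0.1, whereas in the matrix headers Rep1 has 7.0.1 and Rep2 has 8.0.1. The column of counts is the only one used here. No step to remove ambient RNA was run, whereas the study removed it with SoupX. Some genes are not reported here, and 2 cell groups are labelled without 1 of their leading genes.

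Barcodes with at least 3000 genes, at most 10% mitochondrial and at most 5% haemoglobin UMIs were kept, and doublets were removed by Scrublet score at the rate expected for the cell number (4.03% to 5.78% of barcodes), since its own threshold marked 0.015% to 1.74%. Clusters came from 2000 variable genes, 30 components, 20 neighbours and Leiden resolution 0.8 (scanpy 1.11.5). A cluster was named where at least 3 markers, and at least 50% of a list, were in 10% of its cells and 2-fold over other cells with 5 CPM added, unless its 10 genes of highest fold held more markers of another list than of its own. Other clusters are called by their leading genes, T-box genes and unnamed transcripts left out. The 50% limit was set after the clusters were seen. The 6 genes and the lists were chosen with earlier results of these data known. The named genes are the 6 members, the 5 genes closest to each in pattern, and list genes that were called, plus list genes with high levels or co-detection, named after their values were seen.

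Counts summed per group and library were tested with edgeR 4.0.16 (TMM, filterByExpr, quasi-likelihood), with DESeq2 1.42.0 as an alternative. The replicate is the block because the labels give each its own kit. Deviations of same-numbered libraries from their genotype means correlated at 0.67 to 0.95 by group. With the block, the p-values measure how far the difference between cKO and cHet varied between the 2 replicates. That spread is moderated with the spread of the other genes. Each library is a pool, so the spread between single embryos is not measured.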

Additional observations from a re-analysis of the deposited data

Results flagged for a closer look

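The response of a gene to the genotype in 1 cell group was compared with its response in all other kept cells, in 1 edgeR model with each library as a block (138 tests, 16 past an adjusted p of 0.05, of which 10 are in groups where the gene was at 10 CPM or more on average or was called). Values are the difference in log2 fold change (cKO against cHet). Tbx18 differed by 0.90 in Ppp2r2b/Tnc/Rgs5 cells (adjusted p = 5.15e-08), by -0.55 in Galntl6/Gabra2/Lsamp cells (adjusted p = 5.56e-12) and by -1.07 in cranial sensory neuron-like cells. The last value lay in Rep1, since within that group Tbx18 changed by -1.24 in Rep1 and by -0.14 in Rep2 and was not called (adjusted p = 0.408, edgeR). Tbx1 differed by -0.45 in cranial mesenchyme-like cells, by -1.68 in somitic mesoderm-like cells and by -1.73 in Hes5/Rfx4/Fgf14 cells. In Hes5/Rfx4/Fgf14 cells Tbx1 was at 23.7 and 4.13 CPM in cHet and cKO of Rep1 and at 10.1 and 8.65 CPM in those of Rep2, so this value too lay in Rep1, and its own test made no call. Tbx3 differed by 0.94 in otic vesicle-like cells and by 0.75 in cranial sensory neuron-like cells. Tbx20 differed by 0.66 in Ppp2r2b/Tnc/Rgs5 cells and by 0.75 in Wnt2/Rspo2 cells. Within Ppp2r2b/Tnc/Rgs5 cells the replicates had opposite signs for Tbx20, -0.58 in Rep1 and 0.56 in Rep2, and within Wnt2/Rspo2 cells its change was 0.06 ± 0.12. In these 2 groups the comparison is with a sum to which cardiac muscle-like cells contribute most Tbx20 UMIs, and those cells were 0.699% of cKO Rep1 against 2.03% to 2.62% of the other libraries. The part of that share in these values was not tested. For Tbx18 and Tbx3 the other cells also differed in make-up. Dach2/Pcdh9/Lingo2 cells, rich in Tbx18, were 4.70% and 7.47% of cells in cHet and cKO of Rep1 and 4.44% and 5.29% in Rep2. Ppp2r2b/Tnc/Rgs5 cells, rich in Tbx3, were 6.78% and 4.56% in Rep1 and 4.41% and 4.55% in Rep2. Within Galntl6/Gabra2/Lsamp cells the change of Tbx18 was -0.34. The part of these shares was not tested either. The other 6 of the 16 tests concern groups in which the gene was under 10 CPM and had no call. In the models of the groups named here, 0.223% to 1.12% of all genes passed.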

How the results depend on the processing

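The calls depended on both the replicate block and the tool. With no replicate block 0 member tests and 0 list gene tests were called (6 and 22 at an unadjusted p under 0.05), against 4 and 27 with it. DESeq2 with the same block called 0 and 1 (7 and 50 at an unadjusted p under 0.05), RLE size factors in edgeR called 2 of the member tests, thinning to 8000 UMIs called 2 of 70, and no filter on low counts called 11 of 136 and 60 of 1407. The share of all genes called under these settings is not given here. Fits that leave out 1 library, without the block, keep 1 library of a genotype and mix the replicate difference with the genotype. Each of the 4 called changes kept its direction under every one of these settings that tested it, but leaving out 1 library, without the block, moved them to between -2.75 and -0.013 for Tbx1 in somitic mesoderm-like cells, -0.93 and -0.059 for Tbx1 in cranial mesenchyme-like cells, -0.58 and -0.11 for Tbx18 in Galntl6/Gabra2/Lsamp cells, and 0.75 and 1.15 for Tbx18 in Ppp2r2b/Tnc/Rgs5 cells. The log2 fold changes that changed sign were not called in the test as reported. With no replicate block they were Tbx18 (-0.00017) and Tbx1 (0.024) in Dach2/Pcdh9/Lingo2 cells and Tbx1 in pharyngeal endoderm-like cells (-0.10). With no filter it was Tbx1 in Dach2/Pcdh9/Lingo2 cells (0.012), and with DESeq2 Tbx1 in pharyngeal endoderm-like cells (-0.028). With cells thinned to 8000 UMIs they were Tbx18 in Dach2/Pcdh9/Lingo2 (-0.035) and somitic mesoderm-like cells (0.035), Tbx1 in surface ectoderm-like (-0.039), pharyngeal endoderm-like (-0.16) and Wnt2/Rspo2 cells (0.12, against -0.31 with all UMIs), Tbx3 in Epha3/Alx1 (-0.052) and pharyngeal endoderm-like cells (0.033), and Tbx20 in cardiac muscle-like cells (0.036). The level in the highest group moved to 174 CPM for Tbx1 and 205 for Tbx18 at Leiden resolution 1.2, to 69.7 for Tbx3 and 83.1 for Tbx5 with T-box genes kept among the variable genes, to 81.8 for Tbx5 and 134 for Tbx18 with called doublets kept, and to 80.4 for Tbx5 with a minimum of 1000 genes per barcode. The group with the highest mean also changed. For Tbx18 it was Vtn/Sparcl1/Lum cells with called doublets kept and Adamtsl1/Foxl1/Thrb cells at resolution 1.2, and for Tbx3 it was Ppp2r2b/Tnc/Rgs5 cells at resolution 1.2 and otic vesicle-like cells with called doublets kept or a minimum of 1000 genes. Thinning lowered the mean share of cells with a UMI in the highest group to 61.4% for Tbx1, 53.1% for Tbx2, 29.7% for Tbx3, 65.7% for Tbx5, 69.6% for Tbx18 and 70.1% for Tbx20. It moved the co-detection ratios to 1.53 for Tbx2 and Tbx3 in Ppp2r2b/Tnc/Rgs5 cells, 0.57 for Tbx1 and Tbx5 and 0.42 for Tbx1 and Tbx3 in posterior second heart field-like cells, 1.023 for Tbx1 and Tbx18 and 0.62 for Tbx18 and Tbx20 in smooth muscle-like cells, and 1.10 for Tbx5 and Tbx20 in Wnt2/Rspo2 cells. The cause of these shifts was not tested beyond the fewer UMIs that thinning leaves. Changes under 10 CPM rest on few UMIs.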
